A study of Mus musculus with 8 samples.

Results

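The genes described here are the V2R pheromone receptor genes of the mouse numbered Vmn2r18, Vmn2r19, Vmn2r81 to Vmn2r87, Vmn2r90 to Vmn2r110 and Vmn2r118 to Vmn2r127. They were taken by exact gene symbol, without the entries marked as pseudogenes by a -ps suffix. The numbers name 40 symbols, of which 37 had a row among the 124 numbered V2R genes and 27532 genes listed; Vmn2r119, Vmn2r122 and Vmn2r123 were not among the rows and were not analysed here. The 37 genes were compared as 4 number ranges, with 2 genes numbered 18 and 19, 7 numbered 81 to 87, 21 numbered 90 to 110 and 7 from Vmn2r118 to Vmn2r127.

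The vomeronasal organ, a chemosensory organ of the nasal septum that detects pheromones, was profiled by RNA sequencing of bulk tissue in 8 adult mice. The study asked, by its title, about Tex15 and the diversity of vomeronasal sensory neurons. Tex15 is a germ cell gene known for its part in meiosis and in the silencing of retrotransposons in the male germline. The comparison was between 4 Tex15 knockout and 4 Tex15 heterozygous animals, so the controls carried 1 Tex15 allele and no wild-type animal was analysed here; strain, the kind of Tex15 allele and any other allele were not given in the sources used here. Heterozygous animal 1 was male, aged 11.4 weeks, and heterozygous animals 2, 3 and 4 were female, aged 14.6, 11.9 and 11.9 weeks. Knockout animal 1 was female and knockout animals 2, 3 and 4 were male, aged 11.9, 11.9, 11.9 and 12.1 weeks in that order.

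V2R receptors are G protein-coupled receptors with a long extracellular domain that binds peptides and proteins, such as exocrine gland-secreting peptides and major urinary proteins. They are made by the basal neurons of the vomeronasal epithelium, which signal through the G protein Gnao1 and the channel Trpc2. A basal neuron typically makes 1 or a few receptors of the clustered V2R subfamilies together with a broadly used receptor of the Vmn2r1 to Vmn2r7 group, and many also make H2-Mv molecules of the class Ib histocompatibility family. In bulk tissue the level of a receptor reflects both how many neurons chose it and how much RNA each of them held, and fewer cells and less RNA per cell cannot be told apart here.

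Levels are TPM (reads per length of the gene, scaled to the same sum in every library), as deposited by the authors. Whole reads recovered from the steps between low values gave 17832847 to 26360723 reads per library. Tex15 itself stood at 2.27 to 2.81 TPM in heterozygous and at 0.870 to 1.23 TPM in knockout libraries, which did not overlap, with a difference of −1.22 ± 0.38 (log2, SE) that did not pass adjustment (limma, adjusted p = 0.794). The tissue's defining markers were present in every library. The 5 basal neuron markers (Gnao1, Tfap2e, Robo2, Vmn2r1 and Vmn2r2) summed to 51.0 to 146 TPM in heterozygous and to 74.4 to 108 TPM in knockout libraries. In limma 0 of the 5 were called, 0 had an unadjusted p under 0.05 and 0 were called by limma-voom. Omp, the marker of mature sensory neurons, stood at 66.6 TPM in heterozygous library 1 and at 571 to 943 TPM in the other libraries. Over 28 of the 37 genes, those with a mean of at least 0.5 TPM, heterozygous library 3 was the highest heterozygous library for 28 and library 2 the lowest for 25, and knockout library 1 was the lowest knockout library for 23. Library 2 also held the most Cnga2, a channel of main olfactory neurons, at 27.3 TPM against 1.27 to 13.5 TPM elsewhere; the part of these differences between libraries in the results below was not tested, and values per Gnao1 or within a library are given as descriptions.

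The genes lie in few places, and several are near copies of each other. On build GRCm38, with positions from GENCODE M21, Vmn2r81 to Vmn2r83 lie at chr10:79247692-79493585 and Vmn2r84 to Vmn2r87 at chr10:130377925-130497396. All 21 genes numbered 90 to 110 lie within chr17:17703747-20596423, and Vmn2r124 and Vmn2r127 lie in the same stretch, between Vmn2r90 and Vmn2r91 and between Vmn2r98 and Vmn2r99. Vmn2r118 and Vmn2r120 lie further along chromosome 17, Vmn2r125 on chromosome 4, Vmn2r18 on chromosome 5, Vmn2r19 on chromosome 6, Vmn2r126 on chromosome 7 and Vmn2r121 on chromosome X. The deposited table classed Vmn2r125 as an unprocessed pseudogene and Vmn2r127 as a polymorphic pseudogene, and GENCODE M21 gives the identifiers of Vmn2r126 and Vmn2r127 the symbols Gm9268 and Vmn2r-ps119. The coding sequences of Vmn2r84, Vmn2r85 and Vmn2r86 were 96.9% to 98.0% identical in pairwise alignment. Reads from such copies can only be placed where the copies differ. Of all windows of 100 bases in its transcripts, a share of 95% or more was found in no other annotated gene for 26 of the 37 genes, and the shares for Vmn2r84, Vmn2r85 and Vmn2r86 were 93.6%, 90.6% and 89.1%. The lowest shares were 31.0% for Vmn2r126, which shares windows with Vmn2r62, 58.6% for Vmn2r91, which shares them with Vmn2r92, and 79.2% for Vmn2r87. Values of those 3 genes are uncertain, because the counting of reads that match several genes was not given in the sources used here.

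RefSeq promoters of GRCm38.p6 were matched for 35 of the 37 genes by symbol, without Vmn2r125 and Vmn2r127. The stretches below are shown for 3 near copies on chromosome 10 and for a pair of relatives on chromosome 17 whose ratio within a library is described further on; Vmn2r84 and Vmn2r104 were added with their values in view. Each stretch is on the minus strand, written 5′ to 3′, and ends directly before the earlier of the RefSeq and GENCODE starts: Vmn2r84 at chr10:130394333-130394452, Vmn2r85 at chr10:130429704-130429823, Vmn2r86 at chr10:130456051-130456144, Vmn2r94 at chr17:18277757-18277816 and Vmn2r104 at chr17:20048337-20048455. Capitals mark the homeodomain core TAATTA and the TATA box letters TATAAA, on either strand. No motif searched holds another.
Vmn2r84: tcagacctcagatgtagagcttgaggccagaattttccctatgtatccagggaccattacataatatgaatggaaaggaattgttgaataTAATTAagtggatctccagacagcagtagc
Vmn2r85: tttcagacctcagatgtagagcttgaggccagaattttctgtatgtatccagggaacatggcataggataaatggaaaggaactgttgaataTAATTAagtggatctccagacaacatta
Vmn2r86: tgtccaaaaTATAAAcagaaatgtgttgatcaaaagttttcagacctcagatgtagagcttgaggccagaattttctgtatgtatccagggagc
Vmn2r94: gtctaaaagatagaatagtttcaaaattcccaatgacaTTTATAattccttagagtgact
Vmn2r104: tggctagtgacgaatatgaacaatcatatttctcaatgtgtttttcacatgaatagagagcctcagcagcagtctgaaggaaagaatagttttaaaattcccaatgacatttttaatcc

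Over the 250 bases before the RefSeq start, Vmn2r84 and Vmn2r85 were 89.9% identical, Vmn2r84 and Vmn2r86 93.1%, and Vmn2r85 and Vmn2r86 90.7%, with 248 bases aligned in each pair. Of the same window, 179 bases of Vmn2r94 and Vmn2r104 could be aligned, and these were 89.9% identical. The letters TAATTA, searched on both strands, occurred before 12 of the 35 genes (34.3%), beside 4.84% of 32851 RefSeq promoters of the same length. In 11 of the 12 the match lay 117 to 128 bases before the RefSeq start, and before Vmn2r118 it lay at 80 bases. The genes with a match were Vmn2r84 to Vmn2r87, Vmn2r91, Vmn2r92, Vmn2r95, Vmn2r99, Vmn2r101, Vmn2r103, Vmn2r106 and Vmn2r118; the matches of Vmn2r86 and of some others lie past the GENCODE start and are not in the stretches shown. The MEIS core TGACAG was found before 12 of 35 (34.3% beside 15.9% of all promoters), TATAAA before 12 of 35 (34.3% beside 12.4%), the E-box CAGCTG before 6 of 35 (17.1% beside 13.0%) and the AP-2 letters GCCNNNGGC before 2 of 35 (5.71% beside 13.7%). The EBF motif was found before 0 of 35, beside 0.779% of all promoters. The median share of A and T was 64.4% before these genes and 47.6% before all genes, and these short motifs are made of letters in different proportions. A match is a description of the letters and not a binding site.

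**Figure D1:**
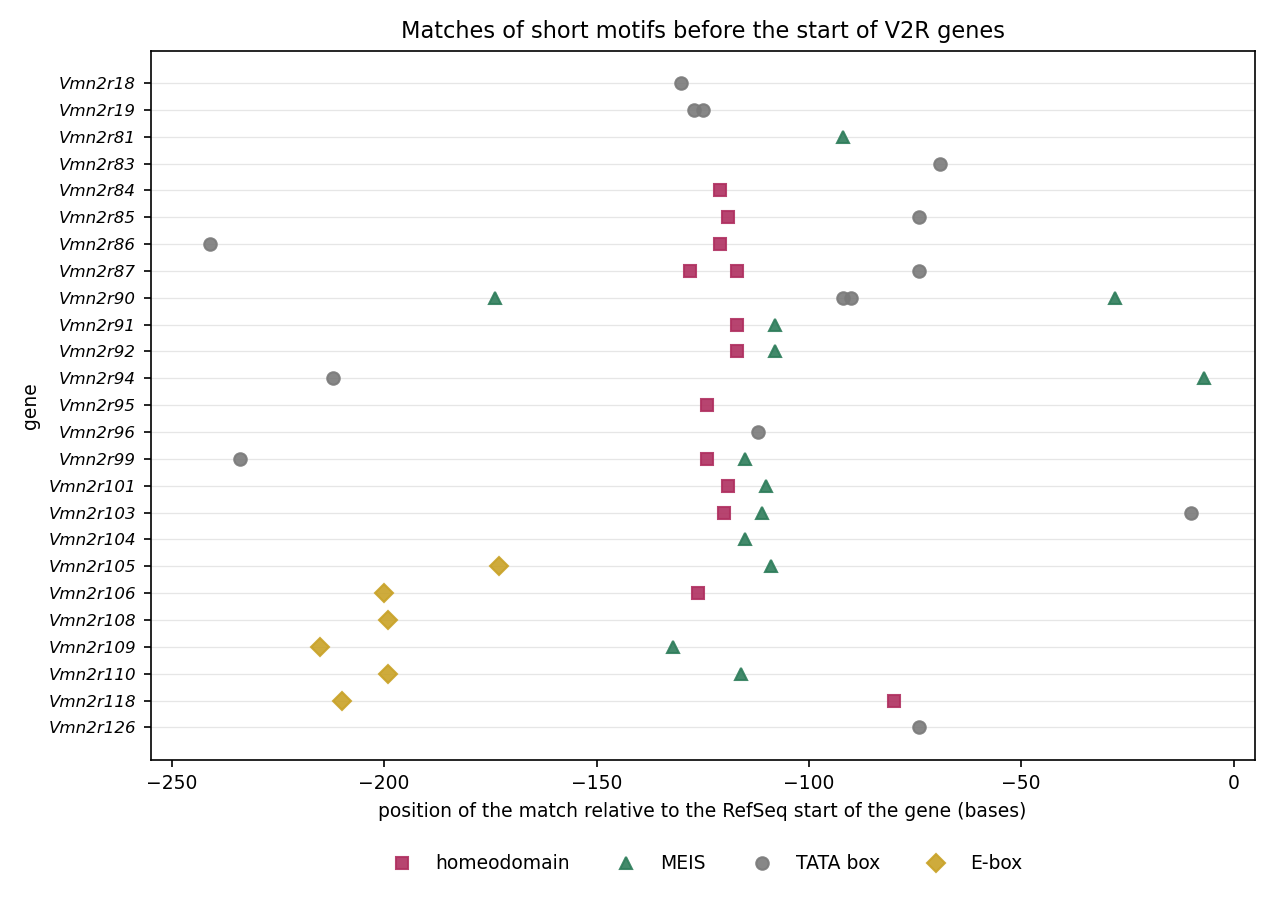
Positions of motif matches in the 250 bases before the RefSeq start (horizontal axis, bases, 0 at the start) of the V2R genes with at least 1 match (vertical axis), by motif. The homeodomain matches (squares) of 11 genes stand in a column between 117 and 128 bases before the start.

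Of the 28 tested genes, 8 fell and 1 rose in knockout animals. By limma on log2(TPM + 0.5) with genotype and sex as terms and Benjamini-Hochberg adjustment over all 20305 tested genes, 9 of 28 were called at an adjusted p under 0.05, beside 0.586% of all tested genes. The 8 that fell were Vmn2r18, Vmn2r81, Vmn2r83, Vmn2r86, Vmn2r96, Vmn2r97, Vmn2r100 and Vmn2r105, and the share of all tested genes called lower was 0.374%. Vmn2r127 rose, and the share of all tested genes called higher was 0.212%. The median difference of the 28 genes was −1.42 on the log2 scale, relative to the median of all tested genes. Differences of single genes and their medians are given this way throughout, and those of summed levels are not. As fitted, the median tested gene lay 0.19 higher in knockout libraries. The same values for the other 79 tested V2R genes were 34 called (29 lower, 5 higher) and a median of −1.52; a difference between the 2 sets was not tested. For 17 of the 28 every knockout library lay below every heterozygous library, beside 0.926% of all tested genes, and for Vmn2r94 and Vmn2r127 every knockout library lay above, beside 0.473%. All 9 called genes were among those whose groups did not overlap. This alone fixes the direction within males and within females, so the sexes add no separate evidence. Heterozygous library 1 is the only heterozygous male and knockout library 1 the only knockout female. Of the 28 genes, 7 reached 0.5 TPM on average only in heterozygous animals, among them the called genes Vmn2r83, Vmn2r86 and Vmn2r97. Such genes passed the filter through the group where they were high, so nothing is read from the counts over tested genes alone. Without the filter, over all 37 genes, the median difference was −0.78 and 3 falls (Vmn2r83, Vmn2r86 and Vmn2r96) and 0 rises were called, beside 0.262% of all genes.

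Of the 8 falls, those of Vmn2r83, Vmn2r86 and Vmn2r96 were lost in 1 alternative, without knockout library 1, and the others in several. Of 28 alternatives, Vmn2r97 and Vmn2r105 kept the call in 18, Vmn2r100 in 22, Vmn2r18 in 23 and Vmn2r81 in 25. Heterozygous animal 1 and knockout animal 1 were the single male and the single female of their groups, and with the sex term each carried a weight of 0.5 in the genotype difference, against 0.167 for each other library. With the sex term, leaving out either of them makes the genotype difference rest on a single library of 1 group, which is heterozygous library 1 without knockout library 1, and knockout library 1 without heterozygous library 1. That lone library is then assumed to vary like the rest. Without knockout library 1, limma called 0 falls and the rise of Vmn2r127 (beside 0.545% of all tested genes); the 8 genes then had adjusted p-values of 0.0692 to 0.817, and at an unadjusted p under 0.05 12 of the 28 were lower (beside 1.06% of all tested genes) and 4 higher (beside 2.72%). Without heterozygous library 1, the falls of Vmn2r83, Vmn2r86 and Vmn2r96 and no rise were called (beside 0.406%). Without knockout library 2 or 3 the falls of Vmn2r81, Vmn2r83, Vmn2r86 and Vmn2r96 and the rise were called in each case (beside 0.505% and 0.563%). With genotype alone as a term, 11 falls and 1 rise were called (beside 0.65%), and leaving out any 1 library from that fit left 6 to 14 falls and 1 rise (beside 0.486% to 0.773%), with 8 falls without knockout library 1 (beside 0.673%). The earlier animal series, heterozygous animals 1 and 2, held no knockout. Among the other 6 animals, numbered in the 7000s, 13 falls and 0 rises were called with the sex term, where knockout library 1 is the only knockout library with weight (beside 1.8%), with Vmn2r127 at 1.66 and an adjusted p of 0.276 (limma), and 14 falls and 1 rise without it (beside 0.894%). By limma-voom on recovered reads 13 falls and 1 rise were called (beside 0.514%), which were the 9 called genes with Vmn2r84, Vmn2r104, Vmn2r118, Vmn2r120 and Vmn2r124.

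**Figure D2:**
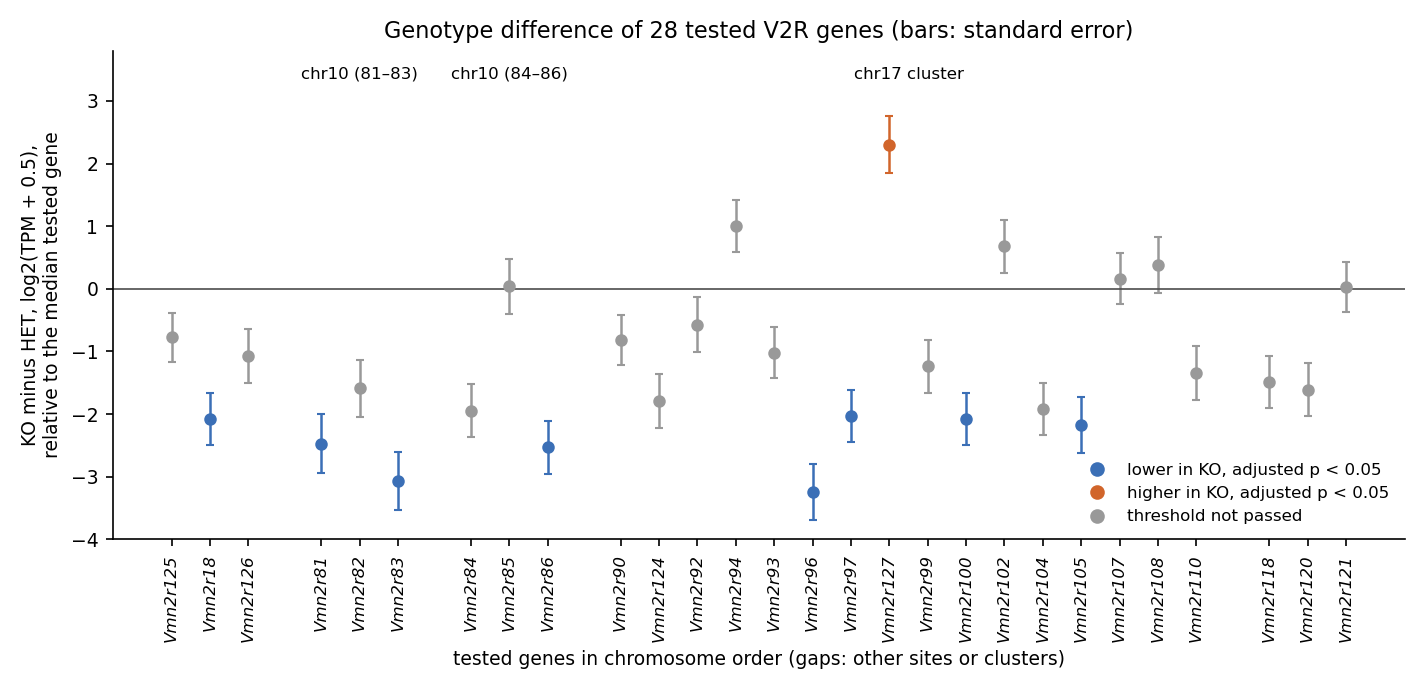
Genotype difference of the 28 tested V2R genes (vertical axis, knockout minus heterozygous on the log2(TPM + 0.5) scale relative to the median tested gene; bars, standard error) in chromosome order (horizontal axis). Blue genes were called lower, the orange gene (Vmn2r127) was called higher, and grey genes did not pass the threshold; in the chromosome 17 stretch genes above 0 stand among genes below 0.

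The number ranges differed in their summed levels. Vmn2r81 to Vmn2r87 together stood at 45.7, 21.3, 80.9 and 55.2 TPM in heterozygous libraries 1 to 4 and at 10.8, 11.8, 13.8 and 16.7 TPM in knockout libraries 1 to 4. The groups did not overlap, and the range made up 5.17 ± 0.66% (SD, n = 4) of the summed TPM of all V2R genes in heterozygous animals and 1.80 ± 0.24% (SD, n = 4) in knockout animals. Vmn2r90 to Vmn2r110 stood at 53.5, 36.3, 99.3 and 68.8 TPM in heterozygous and at 25.1, 41.0, 41.1 and 50.6 TPM in knockout libraries, which overlap. As a share of V2R TPM this range did not overlap, with 6.79 ± 0.38% against 5.25 ± 0.52% (SD, n = 4 each). Vmn2r118 to Vmn2r127 stood at 46.2, 33.0, 94.0 and 72.3 TPM in heterozygous and at 43.2, 49.8, 45.8 and 60.5 TPM in knockout libraries. That range overlapped between the groups as TPM, as a share of V2R TPM (6.41 ± 0.71% against 6.81 ± 0.98%, SD, n = 4 each) and per TPM of Gnao1. Per TPM of Gnao1, the sum of Vmn2r81 to Vmn2r87 was 1.85 to 2.64 in heterozygous and 0.643 to 0.695 in knockout libraries, and that of Vmn2r90 to Vmn2r110 was 2.90 to 3.24 and 1.5 to 2.26. On the log2 scale the summed TPM differed by −1.80, −0.66 and −0.20 in the 3 ranges, in that order. These are plain differences between group means of the log2 sums, without a sex term and without taking off the median tested gene. On this scale the value of the last range was 0.08 as a share of V2R TPM and 0.04 without heterozygous library 3. Among the animals numbered in the 7000s it was −0.74, so its sign was not stable. A sum is carried by its highest genes, which in the last range were Vmn2r121 and Vmn2r125 in both genotypes. It can differ from the median over single genes, which is given for each range below. These sums are descriptions and were not tested.

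**Figure D3:**
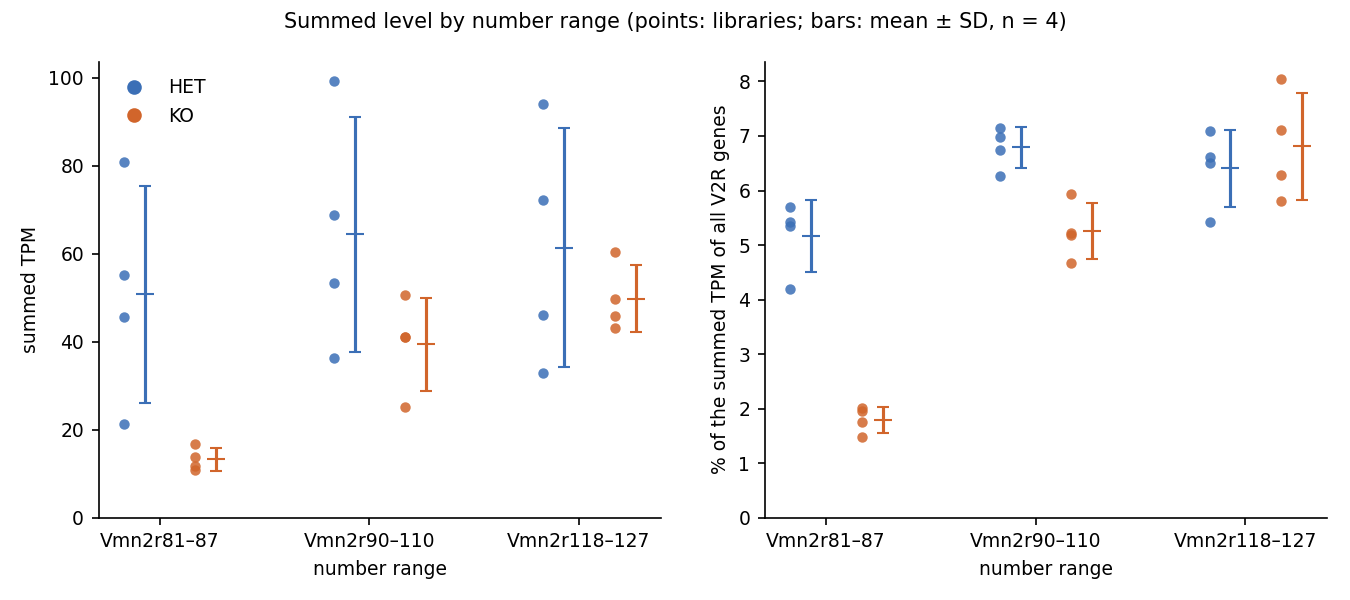
Summed level of 3 number ranges (horizontal axis) in heterozygous (blue) and knockout (orange) libraries, as summed TPM (left) and as a percentage of the summed TPM of all V2R genes (right); points are libraries and bars the mean ± SD (n = 4). For Vmn2r81 to Vmn2r87 the 4 knockout points lie below the 4 heterozygous points in both panels, and for Vmn2r118 to Vmn2r127 the groups overlap in both.

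Of the pair Vmn2r18 and Vmn2r19, 1 was tested. Vmn2r18, on chromosome 5, stood at 2.83, 2.14, 4.50 and 4.05 TPM in heterozygous libraries 1 to 4 and at 0.285, 0.588, 0.908 and 0.661 TPM in knockout libraries 1 to 4. Each knockout value lay below each heterozygous value, and the level fell by 2.08 ± 0.42 on the log2 scale (SE; limma, adjusted p = 0.0382; 0.817 without knockout library 1). Vmn2r19 was close to the floor of detection in all animals, with 0 to 8 reads in a library.

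Among the genes numbered 81 to 87, 6 were tested and 3 fell, and the median difference was −2.21; without the filter, over all 7, 2 fell and the median was −1.90. Vmn2r81 had the highest mean of the range in both genotypes, although in knockout libraries 1, 2 and 3 Vmn2r82 stood above it. Its levels were 20.3, 7.99, 34.8 and 23.6 TPM in heterozygous and 3.14, 3.17, 3.59 and 6.31 TPM in knockout libraries, with a fall of 2.47 ± 0.47 (log2, SE; limma, adjusted p = 0.0202). The groups came close only between heterozygous library 2 and knockout library 4. Vmn2r83 had the largest fall of the range. It stood at 4.30, 2.44, 9.13 and 6.99 TPM in heterozygous and at 0.0951, 0.384, 0.282 and 0.518 TPM in knockout libraries, which correspond to 152 to 364 reads and 4 to 24 reads. The heterozygous mean was 17.9-fold the knockout mean, and the difference was −3.07 ± 0.46 (log2, SE; limma, adjusted p = 0.00188). Every window of its transcripts was found in no other annotated gene.

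Vmn2r86 and Vmn2r85 gave different values although their coding sequences are 97.2% identical. Vmn2r86 fell, from 3.72, 2.20, 5.54 and 4.04 TPM in heterozygous libraries to 0.178, 0.575, 0.353 and 0.675 TPM in knockout libraries (−2.53 ± 0.42, log2, SE; limma, adjusted p = 0.00602). Vmn2r85, which had the highest difference of the range, stood at 2.40, 1.57, 5.14 and 3.51 TPM in heterozygous and at 3.17, 2.58, 3.83 and 4.04 TPM in knockout libraries. Those groups overlapped throughout, and the difference was 0.04 ± 0.43 (log2, SE). Vmn2r84, on the other side of Vmn2r85 on the chromosome, stood at 4.27 ± 1.34 TPM in heterozygous and at 1.08 ± 0.46 TPM in knockout animals (SD, n = 4); its groups did not overlap and its difference of −1.95 ± 0.42 did not pass adjustment (limma, adjusted p = 0.0769). The remaining genes of the range were Vmn2r82, at 11.8 ± 6.49 and 3.82 ± 0.54 TPM (SD, n = 4 each) with groups that did not overlap and a difference of −1.59 ± 0.46 that did not pass (limma, adjusted p = 0.455), and Vmn2r87, which stayed at 0.360 TPM or lower in every library and was not tested.

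The genes numbered 90 to 110 were mixed. Of 21, 14 were tested, 4 fell and 0 rose by limma, with 7 lower (beside 1.46% of all tested genes) and 1 higher (beside 1.64%) at an unadjusted p under 0.05. By limma-voom 5 fell and 0 rose. The differences ran from −3.24 to 1.0 with a median of −1.13. Without the filter, over all 21, the median was −0.52 and 1 fell. Vmn2r96, the highest gene of the range in heterozygous animals, had the lowest difference of the 28 genes on the log2(TPM + 0.5) scale; by the ratio of means its heterozygous level was 10.34-fold the knockout level, below the ratios of Vmn2r83 and Vmn2r104. It stood at 10.31, 6.89, 19.8 and 12.7 TPM in heterozygous and at 0.539, 1.19, 1.26 and 1.82 TPM in knockout libraries. The lowest heterozygous value was above the highest knockout value, and the difference was −3.24 ± 0.44 (log2, SE; limma, adjusted p = 0.000794; 0.0692 without knockout library 1). Vmn2r97, its neighbour and closest relative with 95.5% identity, fell from 1.80, 1.32, 3.34 and 2.28 TPM to 0.0622, 0.268, 0.479 and 0.345 TPM (−2.03 ± 0.42, log2, SE; limma, adjusted p = 0.0455).

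Vmn2r100 and Vmn2r105 completed the genes of this range that fell. Vmn2r100 stood at 3.33, 2.47, 5.80 and 3.73 TPM in heterozygous and at 0.3999, 0.694, 0.810 and 1.01 TPM in knockout libraries (−2.08 ± 0.42, log2, SE; limma, adjusted p = 0.0386). Vmn2r105 stood at 8.17, 4.66, 15.04 and 9.46 TPM in heterozygous and at 1.24, 2.04, 2.33 and 3.26 TPM in knockout libraries (−2.17 ± 0.45, log2, SE; limma, adjusted p = 0.0454). In both genes the groups did not overlap, and every window of their transcripts was found in no other gene. Among those that did not pass, Vmn2r104 stood at 1.55 ± 0.72 and 0.102 ± 0.046 TPM (SD, n = 4 each), a heterozygous mean 15.2-fold the knockout mean, with groups that did not overlap and a difference of −1.91 ± 0.41 (limma, adjusted p = 0.0773; 0.00483 by limma-voom). Vmn2r93 and Vmn2r110 also had groups that did not overlap, with differences of −1.02 and −1.35.

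At the other end of the range stood Vmn2r94, Vmn2r102, Vmn2r107 and Vmn2r108. Vmn2r94, the highest difference of the range, stood at 0.531, 0.308, 1.11 and 0.873 TPM in heterozygous and at 1.57, 2.37, 2.52 and 3.15 TPM in knockout libraries. Every knockout value lay above every heterozygous value, and the difference of 1.0 ± 0.42 did not pass adjustment (limma, adjusted p = 0.605; unadjusted p = 0.00963). Vmn2r108 had the highest mean of the range in knockout animals, at 4.22, 8.72, 7.78 and 10.61 TPM, against 3.42, 2.72, 7.78 and 4.61 TPM in heterozygous libraries. Its groups overlapped at heterozygous libraries 3 and 4, and its difference was 0.38 ± 0.44. Vmn2r102 and Vmn2r107 had mean levels of 4.78 and 6.54 TPM in knockout and 2.18 and 4.96 TPM in heterozygous animals, with overlapping groups and differences of 0.68 ± 0.42 and 0.16 ± 0.41. Vmn2r90, Vmn2r92 and Vmn2r99 were the other tested genes, with overlapping groups and differences of −0.82, −0.57 and −1.24. The 7 genes of the range that were not tested, Vmn2r91, Vmn2r95, Vmn2r98, Vmn2r101, Vmn2r103, Vmn2r106 and Vmn2r109, stayed at 0.802 TPM or lower, with at most 91 reads in a library. Together with Vmn2r19 and Vmn2r87 these were the 9 untested genes, with overlapping groups in all of them. Their means were lower in knockout animals in 9 of 9, but the same share over other genes under the filter was not counted. Vmn2r19, Vmn2r103 and Vmn2r109 held at most 11 reads in a library, so nothing is read from this count.

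**Figure D4:**
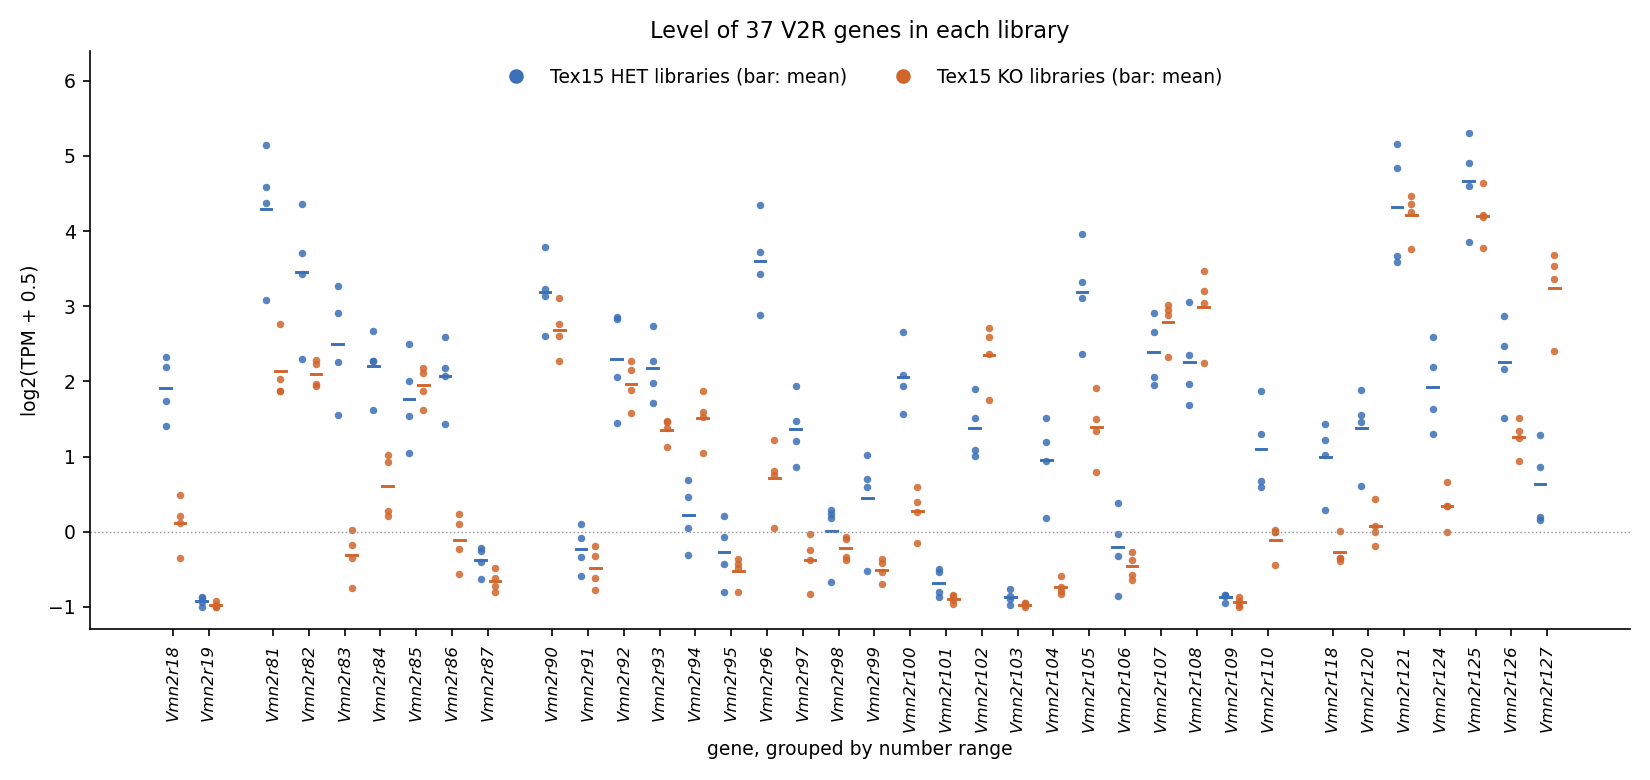
Level of the 37 V2R genes in each library (vertical axis, log2(TPM + 0.5); points, libraries; short bars, group means) by gene and number range (horizontal axis), with heterozygous libraries in blue and knockout libraries in orange; the dotted line marks 0.5 TPM. Orange points lie above all blue points only for Vmn2r94 and Vmn2r127, and the highest points belong to Vmn2r81, Vmn2r121 and Vmn2r125.

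The 7 genes from Vmn2r118 to Vmn2r127 held the single rise. Vmn2r127 stood at 0.617, 0.650, 1.95 and 1.32 TPM in heterozygous libraries 1 to 4 and at 4.82, 9.80, 11.05 and 12.4 TPM in knockout libraries 1 to 4, or 24 to 46 and 120 to 339 reads. The lowest knockout value was above the highest heterozygous value, and the knockout mean was 8.39-fold the heterozygous mean. The difference was 2.30 ± 0.45 (log2, SE; limma, adjusted p = 0.00625; 0.0627 without the filter, 0.747 without heterozygous library 1 and 0.00357 without knockout library 1). Of its windows, 99.0% were found in no other gene. It went from rank 26 of the 37 genes by share of their summed TPM in heterozygous animals, with 0.618 ± 0.14%, to rank 3 in knockout animals, with 9.01 ± 2.06% (SD, n = 4 each).

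Vmn2r125 and Vmn2r121 had the highest means of all 37 genes in both genotypes. Vmn2r125 stood at 23.7, 14.0, 39.0 and 29.5 TPM in heterozygous and at 13.2, 17.7, 18.05 and 24.5 TPM in knockout libraries, which overlapped (−0.78 ± 0.39, log2, SE; limma, adjusted p = 1.0). Vmn2r121, the single gene on the X chromosome and 94.3% identical to Vmn2r125, stood at 21.8 ± 11.8 and 18.3 ± 3.71 TPM (SD, n = 4 each), with overlapping groups and a difference of 0.03 ± 0.40. The sexes are unevenly spread over the genotypes, and both are terms of the fit. Of the others, Vmn2r124, the lowest difference of the range on the log2(TPM + 0.5) scale, stood at 2.59, 1.97, 5.54 and 4.08 TPM in heterozygous and at 0.502, 0.765, 0.769 and 1.08 TPM in knockout libraries. Its groups did not overlap, and its difference of −1.80 ± 0.43 did not pass adjustment (limma, adjusted p = 0.16). By the ratio of means, heterozygous over knockout, Vmn2r124 was at 4.55 and Vmn2r118 at 4.67. Vmn2r118, Vmn2r120 and Vmn2r126 also had groups that did not overlap, with differences of −1.49, −1.61 and −1.07 that did not pass; for Vmn2r126 the closest libraries were both at 2.36 TPM. The share of the genes' summed TPM taken by the highest 3 was 38.5% in heterozygous animals, for Vmn2r125, Vmn2r121 and Vmn2r81, and 45.1% in knockout animals, for Vmn2r121, Vmn2r125 and Vmn2r127.

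Closely related genes differed from each other between the genotypes, as seen in ratios within a library, where the scaling of the library cancels. The pairs were picked with their values in view, and the ratios were not tested. Vmn2r127 over Vmn2r96, whose transcript and coding sequence are 92.3% identical, was 0.0598 to 0.104 in heterozygous and 6.78 to 8.93 in knockout libraries. Vmn2r94 over Vmn2r104 was 0.377 to 0.487 in heterozygous and 18.8 to 32.1 in knockout libraries, at 91.6% identity. In both pairs the 4 ratios of a genotype lay within a narrow span while the genotypes were far apart.

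Other pairs were separated as well. Vmn2r107 over Vmn2r100 was 1.10 to 1.55 and 7.17 to 11.2 in heterozygous and knockout libraries, and Vmn2r108 over Vmn2r110 was 2.36 to 3.39 and 15.05 to 21.4. Vmn2r92 over Vmn2r124 was 1.13 to 1.63 and 3.998 to 5.13. On chromosome 10, Vmn2r85 over Vmn2r86 was 0.646 to 0.927 and 4.49 to 17.8, and Vmn2r85 over Vmn2r84 was 0.555 to 0.878 and 1.69 to 5.72. The knockout ratios of this cluster were more spread than those on chromosome 17. The ratio of Vmn2r121 over Vmn2r125 overlapped between the genotypes, at 0.489 to 0.952 and 0.727 to 1.65. Vmn2r82 over Vmn2r81 was 0.508 to 0.579 and 0.692 to 1.17. Of the 26 pairs of tested genes that were 90% or more identical, 17 had differences of opposite sign. In 9 of the 17 both differences were more than 1 SE from 0, and those 9 kept opposite signs under every alternative that tested both genes; the signs of the other 8 pairs were not stable, with Vmn2r85, Vmn2r107, Vmn2r108 or Vmn2r121 within 1 SE of 0. The median gap between the 2 differences of a pair was 1.65 on the log2 scale, and the largest, 5.55, was that of Vmn2r127 and Vmn2r96. Many of these pairs share a gene, since they are made of 21 genes. Of the 28 tested genes 21 had differences below 0 and 7 above, so less similar genes also form pairs of opposite sign. Those pairs were not counted, so nothing particular to near copies is read from the 17.

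**Figure D5:**
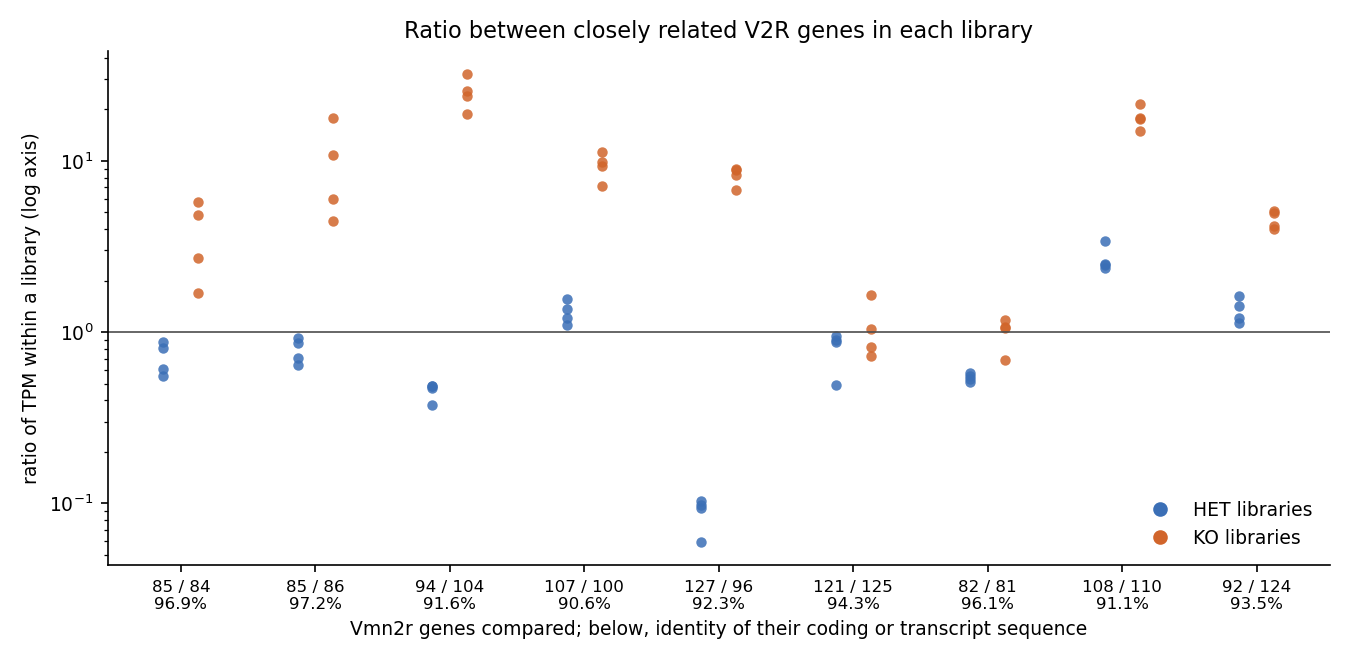
Ratio of the TPM of closely related V2R genes within each library (vertical axis, log scale) for 9 pairs (horizontal axis, gene numbers and sequence identity), with heterozygous libraries in blue and knockout libraries in orange. The genotypes do not overlap in 8 pairs, and they overlap for Vmn2r121 over Vmn2r125.

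The homeodomain letters can be set beside these values. Vmn2r84, Vmn2r85 and Vmn2r86 all held TAATTA at 119 to 121 bases before the RefSeq start, and of the 8 genes that fell 1 had a match, Vmn2r86. Tested genes with a match numbered 6. The groups of Vmn2r84, Vmn2r86 and Vmn2r118 did not overlap, with knockout libraries lower, and those of Vmn2r85, Vmn2r92 and Vmn2r99 overlapped. Of all 28 tested receptor genes, 17 had knockout libraries wholly lower, beside 0.926% of all tested genes. A relation between the match and the values was not tested, and none is read from these counts.

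Other genes of basal neurons were read from a list of 21. In it 1 gene fell, H2-M9, a class Ib molecule of basal neurons, by 2.44 ± 0.48 (log2, SE; limma, adjusted p = 0.0275), and 0 rose; 4 had an unadjusted p under 0.05 (beside 3.1% of all tested genes) and limma-voom called 0. The median of the list was −0.54. Gnao1, the G protein subunit of V2R neurons, stood at 17.3, 11.5, 30.7 and 23.7 TPM in heterozygous and at 16.8, 18.2, 19.8 and 24.2 TPM in knockout libraries, which overlapped (−0.21 ± 0.39). The V2R genes that basal neurons use broadly, Vmn2r1 to Vmn2r7, had differences of 0.26, −0.71, −0.54, −0.39, 0.56, −0.56 and −0.54, in that order. None of them passed adjustment. For Vmn2r5 every knockout library (10.95 to 18.04 TPM) lay above every heterozygous library (3.69 to 10.86 TPM), beside 0.473% of all tested genes. Of 12 listed genes of vomeronasal transduction, 0 were called by limma or by limma-voom, 2 had an unadjusted p under 0.05, and the median was −0.11. Trpc2 was not among the rows and was not analysed here. Markers of other cell types (apical and immature neurons, progenitors, main olfactory neurons, supporting cells, glands, immune cells, erythrocytes and cartilage) had 0 called genes in each list by either tool, with 1 unadjusted p under 0.05, in the cartilage list.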

How the data were processed

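Bulk vomeronasal organ RNA was sequenced in 4 Tex15 heterozygous and 4 Tex15 knockout mice, with 1 library per animal, as paired reads of polyadenylated RNA from strand-specific libraries, per the labels' protocols. The authors deposited 1 table of TPM values per gene and library. Trim Galore 0.6.5, cutadapt 5.1, STAR 2.7.11b and deepTools 3.5.5 and the builds mm10 and GRCm38 are named in the submitters' processing notes; the counting program, its annotation and its handling of reads that match several genes were not given in the sources used here. The values were put on the scale log2(TPM + 0.5), genes whose mean over the libraries was under 0.5 TPM were left out, and limma 3.58.1 (R 4.3.3; lmFit, eBayes with a trend) was fitted with terms for genotype and sex. P-values were adjusted by Benjamini-Hochberg over 20305 genes, with a threshold of 0.05. The script was run on simulated data before use. P-values test the fitted coefficient, and differences of single genes are printed after the median of all tested genes was taken off. Each library is 1 animal.

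TPM of low genes fell on whole reads (within 0.05 reads) for 97.8% to 98.3% of low values per library, and reads were recovered for 99.8% of genes; the 37 receptor genes were all recovered, 11 with the exon length of GENCODE M21 and 26 with another length found from the steps, so the authors' gene models differ from GENCODE M21 for most of them. Recovered reads cover counting error only. Identities are pairwise alignments of GENCODE M21 coding sequences, or of whole transcripts for Vmn2r125 and Vmn2r127, made with Biopython 1.88. Unused columns numbered 0.

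Values in every library are given for called genes, for the highest gene of each number range in each genotype and for the largest rise and fall of each range. The receptor genes, lists and tests were chosen with earlier results of these data known. Alternatives were other pseudocounts, filters and scalings, robust variance, and leaving out each library. Others were fits without sex, with replicate number, with a term for animal numbers in the 7000s, and to those animals alone. limma-voom on recovered reads and the fits without sex that leave out each library were chosen after seeing the data.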

Additional observations from a re-analysis of the deposited data

Results flagged for a closer look

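In groups of 4 libraries, 1 library stood far from the other 3 by Dixon's test at its 95% level in 3 of 64 groups examined; chance gives about 1 in 20. In knockout animals Vmn2r81 was at 6.31 TPM in library 4 and at 3.14 to 3.59 TPM in the others. Vmn2r110 was at 0.238 TPM in knockout library 1 and at 0.495 to 0.517 TPM in the others. Vmn2r118 was at 0.510 TPM in knockout library 2 and at 0.261 to 0.287 TPM in the others. In each case the far library was still below every heterozygous library.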

How the results depend on the processing

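The main counts were 9 called genes of 28 (8 lower, 1 higher) and a median difference of −1.42. Without the filter 3 genes were called, 3 lower and 0 higher, with a median of −0.78 over 37 genes (beside 0.262% of all genes called). Median-ratio scaling gave 15 (14 lower; beside 0.767%). A term for animal numbers in the 7000s gave 13 lower and 0 higher (beside 0.749%). The fit with sex to those animals alone gave the same counts (beside 1.8%). Without the sex term those animals gave 15 (14 lower, beside 0.894%). limma-voom on recovered reads, added after seeing the data, gave 14 (13 lower; beside 0.514%) with a median of −2.19. With a pseudocount of 0.1 the median was −1.95. Leaving out 1 library gave 1 to 13 called genes (0 to 12 lower, 0 to 1 higher; beside 0.406% to 1.25%) with the sex term, and 7 to 15 (6 to 14 lower, 1 higher; beside 0.486% to 0.773%) without it. The summed level of Vmn2r118 to Vmn2r127 was −0.74 (log2) in animals numbered in the 7000s, against −0.20. The causes were not tested. With the replicate number as a block, 7 genes were called (6 lower, 1 higher; beside 0.63%). Same-numbered libraries deviated together with correlations of −0.06 to 0.10 over genes (4 pairs) and other pairs with −0.17 to 0.19, and no label ties the numbers to a shared litter or day, so they were not taken as pairs. Over 779 values of single genes under 28 alternatives, 41 lost and 49 gained the call and 0 called values changed sign. The tested genes held as few as 4 reads in a library; depth was not tested as a limit.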
